A study of Homo sapiens with 54 samples.

Results

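Compound Kushen Injection (CKI) is a herbal extract of Sophora flavescens and Heterosmilax chinensis that contains alkaloids, flavonoid glycosides and other plant compounds. In the samples described here, 4 mixtures that each lacked 1 compound of CKI were compared, as a pool, with whole CKI. These were all samples labelled as a single-compound removal (12 libraries) and all CKI samples of the same time and batch (3 libraries), chosen by label and not by any measured value, and they made up 15 of the 54 samples of the series. The cells were MDA-MB-231, a human cell line of triple-negative breast cancer, their polyadenylated RNA was sequenced, and the deposited values were raw read counts per gene.

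All 15 libraries came from cells treated for 48 h in batch 2, with 3 libraries in each of the 5 groups. Cells of the CKI group received 2 mg/ml CKI. N-Mac, N-Nme, N-Omt and N-Tri are mixtures at the equivalent of 2 mg/ml from which the compound abbreviated Mac, Nme, Omt or Tri had been removed. Among the compounds that the study lists in CKI, these abbreviations match macrozamin (an azoxyglycoside), N-methylcytisine and oxymatrine (alkaloids) and trifolirhizin (a flavonoid glycoside). A further 3 libraries of untreated cells (UT) from the same time and batch served as a reference level. The mixtures were made by fractionating CKI by liquid chromatography and recombining the fractions, whereas CKI was given whole. No library of fully recombined CKI is among the 54, so for differences that all 4 mixtures share, the removal of a compound and the fractionation cannot be told apart. The cells are 1 line, and the replicates are described as biological without a culture or day being named, so p-values measure the spread between these libraries.

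Total counts were between 17673537 and 24603876 in the 15 libraries and between 23373761 and 25453736 in the untreated libraries. All 8 markers of MDA-MB-231 cells were expressed, with vimentin (VIM) at 511, 568 and 547 CPM (read counts scaled to the size of the library, the unit of all levels here) in the CKI libraries, while the hormone receptor genes ESR1 and PGR had too few counts for a test. Of the 8 MDA-MB-231 markers, 3 were called higher and 5 lower in the pool, with a median log2 fold change of -0.42. VIM was at 0.78 and S100A4 at -1.66. Of 8 fibroblast markers, 7 were tested and 7 were called lower in the pool, 4 of them in all 4 mixtures. Their summed level was 41.5 to 42.6 CPM with CKI, 14.8 to 38 CPM in the mixtures and 34.8 to 45.7 CPM in untreated cells, and single libraries stood apart. DCN and POSTN had 0 to 2 counts in N-Nme library 3, N-Omt library 3 and the 3 N-Tri libraries but 8 to 17 in the other 7 mixture libraries and 12 to 24 with CKI. COL1A2 split in the same way, with 0.675 to 1.16 CPM in those 5 libraries and 3.32 to 5.22 CPM in the other 7. Without those 5 libraries, in a fit chosen after the data were seen that holds no N-Tri library, 11458 genes were called in the pooled comparison described below, and the replication, mitosis, cytokine and ATF4 lists had medians of -1.35, -1.47, 3.33 and 1.35. In that fit 5 of the 7 fibroblast markers were called lower. Leukocyte markers summed to 6.15 to 6.89 CPM with CKI, 0.953 to 4.03 CPM in the mixtures and 5.4 to 7.62 CPM in untreated cells. Of 6 leukocyte markers 2 were tested, and both were called lower in the pool, 1 of them in all 4 mixtures. Luminal epithelial markers summed to 544 to 563 CPM with CKI, 315 to 458 CPM in the mixtures and 732 to 784 CPM in untreated cells. KRT19 made up most of this sum, with means of 518, 346 and 714 CPM in that order. Of 6 tested luminal genes 2 were higher, among them EPCAM by 1.04, and 3 lower. The part of the luminal markers in other results was not tested. In bulk RNA, a smaller number of cells that express a gene and less RNA per cell cannot be told apart.

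Several cell programmes recur below. When unfolded proteins build up in the endoplasmic reticulum (ER), the unfolded protein response raises ER chaperones and, through the transcription factors ATF4 and CHOP, genes of amino acid supply and stress. NF-kB is a transcription factor that switches on cytokine and chemokine genes, many of which MDA-MB-231 cells express. E2F and related factors drive the genes of DNA replication and mitosis, which are transcribed mainly in dividing cells, and the aryl hydrocarbon receptor (AhR) drives CYP1A1 in the presence of many planar aromatic ligands.

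The regulatory stretches of 4 genes on which the results turn are shown first, because each holds a short motif of 1 of these programmes. They are the 250 bases upstream of the transcription start in RefSeq (GRCh38.p14), 5′ to 3′ on the gene's strand, with the motif in capitals on whichever strand it lies, and the gene of each list was the most changed member whose stretch holds the motif. CXCL8 (chr4:73740319-73740568 on the plus strand) holds a form of the NF-kB motif, GGANTTTCC. HSPA5 (chr9:125241344-125241593 on the minus strand) holds the ER stress response element. UHRF1 (chr19:4909251-4909500 on the plus strand) holds a form of the E2F motif, TTTCCCGC, and CYP1A1 (chr15:74725529-74725778 on the minus strand) holds GCGTG, the core of the xenobiotic response element that AhR binds.
CXCL8: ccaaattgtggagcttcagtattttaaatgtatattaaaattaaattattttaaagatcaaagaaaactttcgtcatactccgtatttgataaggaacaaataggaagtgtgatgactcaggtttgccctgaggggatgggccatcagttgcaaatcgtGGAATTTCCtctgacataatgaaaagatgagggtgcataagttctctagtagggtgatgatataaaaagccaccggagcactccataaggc
HSPA5: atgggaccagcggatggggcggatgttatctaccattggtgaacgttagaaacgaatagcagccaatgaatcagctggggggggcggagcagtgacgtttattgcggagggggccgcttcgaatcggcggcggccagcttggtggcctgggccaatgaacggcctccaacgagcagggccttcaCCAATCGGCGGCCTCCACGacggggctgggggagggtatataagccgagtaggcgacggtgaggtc
UHRF1: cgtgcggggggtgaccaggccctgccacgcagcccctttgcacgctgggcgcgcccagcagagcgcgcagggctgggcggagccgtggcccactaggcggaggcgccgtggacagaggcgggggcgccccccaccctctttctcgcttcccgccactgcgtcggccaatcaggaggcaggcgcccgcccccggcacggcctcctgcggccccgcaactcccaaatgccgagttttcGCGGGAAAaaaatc
CYP1A1: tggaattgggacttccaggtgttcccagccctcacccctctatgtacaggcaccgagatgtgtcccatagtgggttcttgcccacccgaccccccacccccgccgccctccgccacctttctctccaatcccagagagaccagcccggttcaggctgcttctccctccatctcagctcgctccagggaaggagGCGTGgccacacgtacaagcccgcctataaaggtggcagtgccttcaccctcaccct

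The share of promoters with each motif was counted on both strands over the 27305 stretches of the same length. The ER stress response element, CCAAT, any 9 bases and CCACG, was found in 22 of them (0.0806%) and in 6 of the 18 ER chaperone genes (HSPA5, HSP90B1, CALR, CANX, CRELD2 and XBP1). The NF-kB form was in 1.47% of all stretches and in 8 of 17 cytokine and NF-kB genes with a stretch (IL6, CXCL8, CXCL1, CXCL2, CXCL3, TNFAIP3, NFKBIA and ICAM1). The E2F form TTTCCCGC was in 1.42% of all and in 9 of 26 replication genes, and GCGTG was in 31.9% of all and in 3 of 5 genes of the AhR list. The motif TGATGNAA, bound by heterodimers of C/EBP and ATF proteins, was in 3.19% of all and in 3 of 17 ATF4 and CHOP genes (ATF3, CHAC1 and ASNS). The form TTTGGCGC of the E2F motif was in 0.553% of all and in 3 of 26 replication genes, and TTTGAA, part of the cell cycle homology region of mitotic genes, was in 13.6% of all and in 14 of 23 mitosis genes. These matches describe letters in a window and do not show binding.

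Most genes differed between the mixtures and CKI, in nearly equal numbers in both directions. Of 14991 genes tested, 11583 (77.3%) were called in the pooled comparison with edgeR's quasi-likelihood test at a Benjamini-Hochberg adjusted p under 0.05. The mixtures were higher in 5802 genes (38.7%) and lower in 5781 (38.6%), and the median log2 fold change over all genes was 0.01. These shares are the background of the list counts below. The scaling of the libraries (TMM) assumes that most genes do not change, so a median near 0 and an even balance are partly set by it. With library sizes alone, 5497 genes were called higher and 6069 lower. The values below are relative to the typical gene, and a shift of all RNA would not be seen. With a difference of at least 2-fold also required, 2424 genes were called (16.2%), 1090 higher (7.27%) and 1334 lower (8.9%). The 12 mixture libraries and the 3 CKI libraries did not overlap in 7334 genes (48.9%). Replicates were close, with a biological coefficient of variation of 0.0447, and small differences passed the test. Sizes are therefore given for most genes named and medians for most lists.

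The mixtures shared a large part of these differences. Each was compared with the same 3 CKI libraries, and 10526 genes were called for N-Mac (70.2%), 10863 for N-Nme (72.5%), 11565 for N-Omt (77.1%) and 10833 for N-Tri (72.3%). In 7126 genes (47.5%) all 4 mixtures were called in the same direction, 3523 of them higher (23.5%) and 3603 lower (24%). At least 2-fold in each of the 4, 559 genes were higher and 647 lower. By contrast, 1290 genes were called higher in at least 1 mixture and lower in at least 1 other.

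The 4 mixtures lay nearer to each other than to CKI. The root mean square difference of log2 levels between groups was 0.254 to 0.644 among the mixtures, 0.759 to 0.924 between a mixture and CKI and 0.784 to 1.04 between a mixture and untreated cells, while CKI and untreated cells were 0.695 apart. N-Omt lay farthest from the other mixtures, and N-Nme and N-Tri lay nearest to each other. The mixtures were thus no closer to untreated cells than CKI was.

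**Figure D1:**
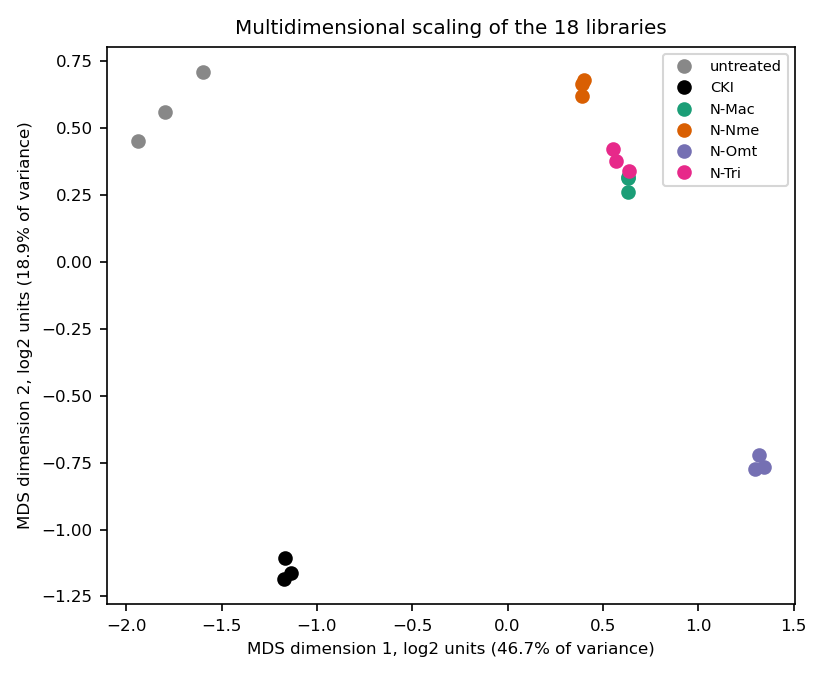
Multidimensional scaling of the 18 libraries, in which the distance between points stands for the typical log2 difference between libraries. The first dimension (46.7% of the variance) places untreated and CKI libraries on the left and the 12 mixture libraries on the right, and the second (18.9%) sets the 3 CKI and 3 N-Omt libraries below the others.

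In most of the largest shared differences, untreated cells lay between CKI and the mixtures. Of the 559 genes at least 2-fold higher in each mixture, the untreated level lay between CKI and the mixtures in 391 (69.9%), CKI lay between untreated cells and the mixtures in 118 (21.1%), and the mixtures lay between CKI and untreated cells in 50 (8.94%). For the 647 genes that were at least 2-fold lower, these numbers were 387 (59.8%), 189 (29.2%) and 71 (11.0%). Over all genes tested, the corresponding shares were 33.7%, 38.8% and 27.6%. These positions rest on the same CKI and mixture libraries as the choice of the genes and are given as a description. Tested against untreated cells in the fit of 18 libraries, the mixtures lay beyond the untreated level in 2693 of the 3523 shared higher genes and in 2772 of the 3603 shared lower genes.

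The cytokine list had the largest median of the lists against CKI of batch 2. CXCL8, which encodes the neutrophil chemokine interleukin-8, had 20.7, 23.3 and 20.5 CPM with CKI and 86.8, 69.7 and 116 CPM in untreated cells. It had 2270, 2380 and 2270 CPM with N-Mac, 794, 876 and 858 with N-Nme, 686, 730 and 708 with N-Omt and 1200, 1230 and 1400 with N-Tri. Every mixture library was above every CKI and untreated library, and CKI was below untreated cells. The log2 fold change of the pool against CKI was 5.76 ± 0.067 (SE), a 54.0-fold difference (adjusted p = 1.06e-36, edgeR's quasi-likelihood test).

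Of the 21 cytokine and NF-kB genes tested, 18 rose and 2 fell in the pool, where 38.7% of all genes rose and 38.6% fell. In all 4 mixtures 14 were higher and none lower. The 21 include CCL20 and TNF, which had 0 or 1 counts in each CKI library. Both entered the test only through their counts in the mixtures, so neither could have been called lower. The median log2 fold change of the list was 3.15, beside 0.01 over all genes. TNF, which had no count in any CKI library and up to 14 in a mixture library, enters this median with a fitted value. Set at its bound against a floor of 3 counts over the CKI group (at least 4.72-fold higher), the median is 2.64. The chemokine genes CXCL2, CXCL3 and CXCL1 rose by 4.24, 3.87 and 3.78 on the log2 scale, and PTGS2, which encodes the inducible cyclooxygenase COX-2, by 4.01. CCL20, a chemokine gene for which the 3 CKI libraries held 0, 1 and 1 counts, had between 0.715 and 7.14 CPM in the mixtures, and no fold is given.

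The interleukin genes followed the same direction with different sizes in the mixtures. IL6 had 6.03, 6.01 and 6.54 CPM with CKI, 27.7, 27 and 29.5 CPM in untreated cells and 34.6 to 183 CPM (median 83.8) in the mixtures. N-Mac held the highest IL6 values and N-Nme the lowest, and the latter still exceeded all untreated libraries. IL24, a cytokine gene of the interleukin-10 family, had 23.6, 27.8 and 22 CPM with CKI, close to the 16.5, 11.2 and 23.7 CPM of untreated cells, and 359 to 711 CPM (median 498) in the mixtures. IL24 rose by 4.39 ± 0.069 (SE) on the log2 scale. Regulators of NF-kB itself changed less, with the inhibitor genes TNFAIP3 and NFKBIA higher by 1.86 and 0.16 and the subunit gene NFKB2 lower by 0.24.

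Most genes of the ER stress response were also higher in the mixtures, less so in N-Omt. HSPA5, which encodes the ER chaperone BiP, had 948, 961 and 937 CPM with CKI and 2820, 2170 and 4060 CPM in untreated cells. It had 5950, 5910 and 6040 CPM with N-Mac, 8080, 8430 and 8370 with N-Nme, 3240, 3320 and 3310 with N-Omt and 6700, 6450 and 6160 with N-Tri. CKI was thus below the untreated libraries, the N-Omt libraries lay within the range of untreated cells and the other 9 mixture libraries above it. The pool was 6.05-fold above CKI, with a log2 fold change of 2.60 ± 0.045 (SE, adjusted p = 3.07e-32, edgeR's quasi-likelihood test).

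Of 18 ER chaperone genes, 15 rose and 2 fell, with 12 higher in all 4 mixtures and none lower in all 4 (median log2 fold change 0.98). HERPUD1, a factor of ER-associated degradation, rose by 1.81, and the chaperone genes HSP90B1 and DNAJB9 rose by 1.79 and 1.45. The 2 that fell were CALR and CRELD2, by 0.13 and 0.21. The list's median was 1.28 for N-Nme, 1.00 for N-Tri, 0.97 for N-Mac and 0.37 for N-Omt. In N-Omt, SDF2L1 and DNAJC3 were at -0.42 and -0.30 relative to CKI, and CRELD2 at -1.03.

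Most of the ATF4 and CHOP genes were higher in all 4 mixtures. DDIT3, which encodes CHOP, had 29.5, 31 and 32.2 CPM with CKI, 55.8, 36.2 and 82 CPM in untreated cells and 143 to 249 CPM (median 170.0) in the mixtures. No mixture library overlapped with an untreated or CKI library. DDIT3 rose by 2.58 ± 0.068 (SE) on the log2 scale, or 5.99-fold. Of the 20 genes of the list 17 rose and 1 fell, with 14 higher and 1 lower in all 4 mixtures, and the list's median was 1.39, with 1.20 to 1.58 over the mixtures. Of these 20 genes, 18 were called in the test among the mixtures, in which 78.5% of all genes were called. SLC3A2, an amino acid transporter subunit gene, was 1 of them, with 0.68 in N-Mac and 1.75 in N-Omt. ATF3, a stress-induced transcription factor, rose by 2.34, NUPR1 by 2.21, and TRIB3, a pseudokinase gene that CHOP induces, by 2.07. ATF4 itself rose by 0.73, and SLC7A5, a transporter gene of large amino acids, fell by 0.55.

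The genes of DNA replication and mitosis fell together. RRM2, the small subunit of ribonucleotide reductase, had 107, 102 and 99.5 CPM with CKI and 168, 179 and 155 CPM in untreated cells. It had 41.8, 38.2 and 41.8 CPM with N-Mac, 41, 38.9 and 39.3 with N-Nme, 4.31, 4.25 and 3.74 with N-Omt and 37.9, 37.7 and 30 with N-Tri. CKI was already below untreated cells, and the mixtures lay below CKI, N-Omt by the most. RRM2 fell by 2.21 ± 0.049 (SE) on the log2 scale.

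All 30 replication genes tested fell in the pool, 29 of them in all 4 mixtures, with a median of -1.32. UHRF1, which maintains DNA methylation at replication forks, fell by 2.55, the replication initiation factor MCM10 by 2.43 and thymidine kinase TK1 by 2.15. All 28 mitosis genes fell in the pool and in each of the 4 mixtures, with a median of -1.41. MKI67, which encodes the proliferation marker Ki-67, had 126, 119 and 129 CPM with CKI, 341, 350 and 302 CPM in untreated cells and 5.47 to 63.2 CPM (median 44.7) in the mixtures. BIRC5, TOP2A and PLK1, which encode survivin, a DNA topoisomerase and a mitotic kinase, fell by 2.08, 2.00 and 1.79.

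The fall was not equal among the mixtures. The median of the mitosis list was -2.51 for N-Omt, -1.10 for N-Mac, -1.07 for N-Tri and -0.65 for N-Nme. All 28 genes were called in the test of differences among the 4 mixtures, in which 78.5% of all genes were called. The corresponding medians of the replication list were -1.98, -0.91, -1.34 and -1.12. Among G1 regulators, 4 of 16 genes rose and 11 fell. Cyclin genes moved both ways, with CCND2 higher by 2.43, and CCNE2, CCND3 and CCND1 lower by 2.31, 1.96 and 0.91. E2F2 and E2F1, which encode activators of replication genes, fell by 3.59 and 1.9, and CDKN1A, which encodes the cell cycle inhibitor p21, rose by 0.51.

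**Figure D2:**
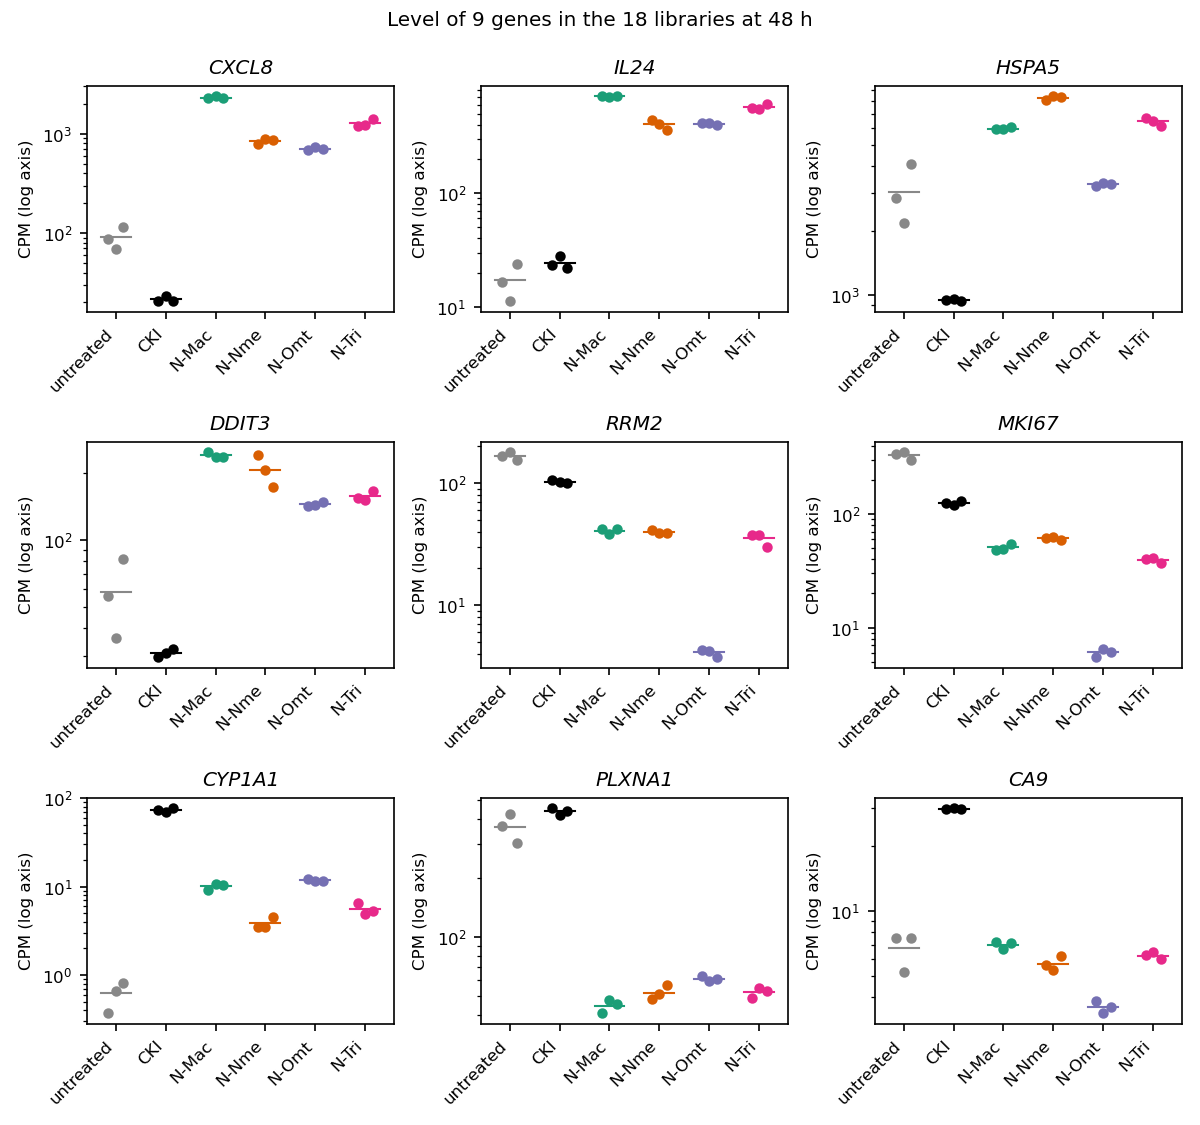
Level of 9 genes in CPM on a log axis in each of the 18 libraries, with 3 points and a line at their mean for each group. CXCL8 and HSPA5 lie below the untreated level with CKI and above it in the 12 mixture libraries or, for HSPA5 with N-Omt, within it. RRM2 and MKI67 fall from untreated cells to CKI to the mixtures, and CA9 is near the untreated level in the mixtures but not with CKI.

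A further group of genes was high with CKI and low in the mixtures. CYP1A1, the AhR-induced cytochrome P450, had 73.8, 68.7 and 76.6 CPM with CKI and 0.37, 0.669 and 0.821 CPM in untreated cells. The mixtures had 3.5 to 12.1 CPM (median 7.8), which was below all CKI libraries and above all untreated libraries. CYP1A1 was 10.2-fold lower in the pool than with CKI, a log2 fold change of -3.35 ± 0.055 (SE, adjusted p = 9.80e-33, edgeR's quasi-likelihood test). CYP1B1, another AhR target, fell by 1.56, while the receptor gene AHR and the gene of its partner, ARNT, rose by 0.64 and 0.32. Of the 7 genes of the AhR list, 3 rose and 4 fell.

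Most listed genes of redox metabolism and hypoxia were also lower in the mixtures than with CKI, though not all. NQO1, a quinone reductase gene and NRF2 target, had 363, 380 and 373 CPM with CKI, 152, 168 and 143 in untreated cells and 134 to 235 CPM in the mixtures. Its N-Omt libraries, at 219, 235 and 235 CPM, lay above untreated cells. Of 19 NRF2 targets, 5 rose and 11 fell (median -0.55), and AKR1B10, an aldo-keto reductase gene, fell by 2.71. AKR1C1, a hydroxysteroid dehydrogenase gene, and SLC7A11, both of the same list, instead rose by 2.19 and 1.08. Relative to untreated cells, the list had a median of 0.95 with CKI and still 0.84 in the mixtures. CA9, the hypoxia-induced carbonic anhydrase IX, had 29.5, 29.8 and 29.6 CPM with CKI, 7.52, 5.26 and 7.52 in untreated cells and 3.38 to 7.19 CPM in the mixtures. Of 22 genes of glycolysis and hypoxia, 4 rose and 17 fell (median -0.40).

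The reverse pattern, low with CKI and near the untreated level in the mixtures, was seen for a few of the named genes. ABCA1, a cholesterol efflux transporter gene, had 9.46, 9.46 and 8.26 CPM with CKI, 81.1, 80.8 and 80.9 in untreated cells and 54.4 to 67.2 CPM in the mixtures. The 4 mixtures agreed closely, with log2 differences from CKI of 2.70 to 2.89. TNC, which encodes the matrix protein tenascin-C, had 12.6, 12.9 and 14.3 CPM with CKI, 66.6, 66 and 65 in untreated cells and 44.8 to 57.3 CPM in the mixtures. The interferon-induced genes OASL and IFIT2 rose by 1.76 and 1.64, but their pooled levels stayed below untreated cells, by 0.75 and 1.06 on the log2 scale. IFIT2 had 44.3 to 83.6 CPM in the mixtures and 137, 143 and 125 in untreated cells. OASL with N-Omt, at 62.0, 62.2 and 62.3 CPM, was within the 60.8, 73.6 and 54.2 CPM of untreated cells. Its means with N-Mac, N-Nme and N-Tri were 34.5, 30.6 and 29.5 CPM. Other genes of the interferon list went the other way, with IFI6 and BST2 at -2.02 and -1.81 and lower in all 4 mixtures. IFI6 had 52.1, 51.6 and 52.7 CPM with CKI, 32.5, 36 and 29.9 in untreated cells and 11.3 to 14.4 CPM in the mixtures. The list had 9 genes higher and 8 lower of 21, near the shares over all genes (38.7% and 38.6%). By at least 2-fold, 3 were higher and 4 lower.

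Most genes of sterol and fatty acid synthesis were lower in the mixtures, less so in N-Omt. Of 30 genes, 28 fell and 2 rose, and 22 were lower in all 4 mixtures (median -0.69). The list's median was -0.42 for N-Omt, -0.79 for N-Mac, -0.82 for N-Tri and -0.98 for N-Nme. FASN, which encodes fatty acid synthase, had 743, 676 and 711 CPM with CKI, 1350, 1120 and 1360 in untreated cells and 182 to 325 CPM in the mixtures. Every mixture library was below every CKI library, and CKI was below untreated cells. The mevalonate kinase gene MVK fell by 1.88, FASN by 1.5 and the fatty acid desaturase gene FADS2 by 1.4. The 2 genes that rose were STARD4 and FADS1, each by 0.16.

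Several of the genes with the largest shared falls encode receptors, matrix or secreted factors. PLXNA1, which encodes the semaphorin co-receptor plexin A1, had 455, 422 and 439 CPM with CKI, 370, 423 and 303 in untreated cells and 40.6 to 62.7 CPM (median 51.9) in the mixtures. CKI and untreated cells were alike for this gene, and every mixture library lay far below both. It was 8.36-fold lower in the pool, a log2 fold change of -3.06 ± 0.038 (SE, adjusted p = 3.26e-36, edgeR's quasi-likelihood test). The growth factor gene BMP4 fell by 2.98, the Wnt co-receptor gene LRP5 by 2.66 and the laminin chain gene LAMA5 by 2.58. RARRES2, which encodes the chemoattractant chemerin, fell by 3.40.

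Lists tied to cell migration, which the study measured in other assays, held changes in both directions. Over all genes, 38.7% rose and 38.6% fell. Of 20 actin and SRF genes, 4 rose and 14 fell (median -0.39), with ACTG1, a cytoplasmic actin gene, lower by 1.04. Of 19 integrin and focal adhesion genes, 5 rose and 13 fell (median -0.42). ITGB5 and ITGB4 fell by 1.85 and 1.24, and the kinase gene SRC rose by 0.94. Matrix and invasion genes were split, with 14 of 27 higher and 12 lower (median 0.13), 9 and 4 of them by at least 2-fold. TIMP1, a protease inhibitor gene, was lower by 1.87. The protease genes MMP10 and MMP3, both among the 9, were higher from CKI counts of 1 to 7. They entered the test only through their counts in the mixtures, so a call of lower was not open to them. Of 10 YAP and TEAD targets, 4 rose and 6 fell, CTGF by 1.66.

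Of 14 genes that the study took as core migration genes from CKI-treated cells of this line, a choice that is not independent of such libraries, 13 were tested. In the pool 6 rose and 7 fell, a near-even split as over all genes (38.7% and 38.6%), with a median of -0.09. The kinase gene PIK3CA rose by 0.95, and CCND1, AKT1 and AKT2 fell by 0.91, 0.83 and 0.55. The catenin gene CTNNB1 fell by 0.40. RB1, a cell cycle inhibitor gene, differed by -0.10 (adjusted p = 0.037, edgeR's quasi-likelihood test). CDH1, which encodes E-cadherin, had 0.0511 to 0.398 CPM with CKI, too few counts for its rise of 1.60 to be read as a level.

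Smaller lists are given by their counts, to be read beside the 38.7% of all genes that rose and the 38.6% that fell. Of 17 genes of ribosome biogenesis and MYC, 14 rose and 1 fell (median 0.56), with MYC higher by 1.00 and the nucleolar protein gene WDR43 by 1.08. Of 12 heat shock chaperone genes, 7 rose and 2 fell (median 0.30), and the mitochondrial chaperone gene HSPD1 rose by 0.96. Of 16 lysosome and autophagy genes, 5 rose and 10 fell (median -0.30), with MAP1LC3B, which encodes an autophagosome protein, higher by 1.36 and TFEB, which encodes a transcription factor of lysosomal genes, lower by 1.29. Of 13 apoptosis and p53 genes, 7 rose and 4 fell (median 0.35), with GDF15, a stress cytokine gene, higher by 1.84 and the BH3-only genes BBC3 and PMAIP1 by 1.05 and 0.90.

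Among 11 LXR and PPAR targets, 4 rose and 7 fell, and the lipid droplet gene PLIN2 rose by 2.08. Among 16 genes of TGF-beta signalling, 7 rose and 8 fell, and ID1, an inhibitor of transcription factors that BMPs induce, fell by 1.99. Of 17 MAPK feedback and immediate early genes, 9 rose and 8 fell, a near-even split as over all genes (38.7% and 38.6%). Of 16 respiratory chain genes, 3 rose and 6 fell, none of them by at least 2-fold (median -0.08). Of 9 iron and ferroptosis genes, 6 rose and 3 fell (median 0.25). Of 5 metallothionein, 5 drug efflux and 7 histone genes tested, 2, 1 and 1 rose and 0, 3 and 2 fell.

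**Figure D3:**
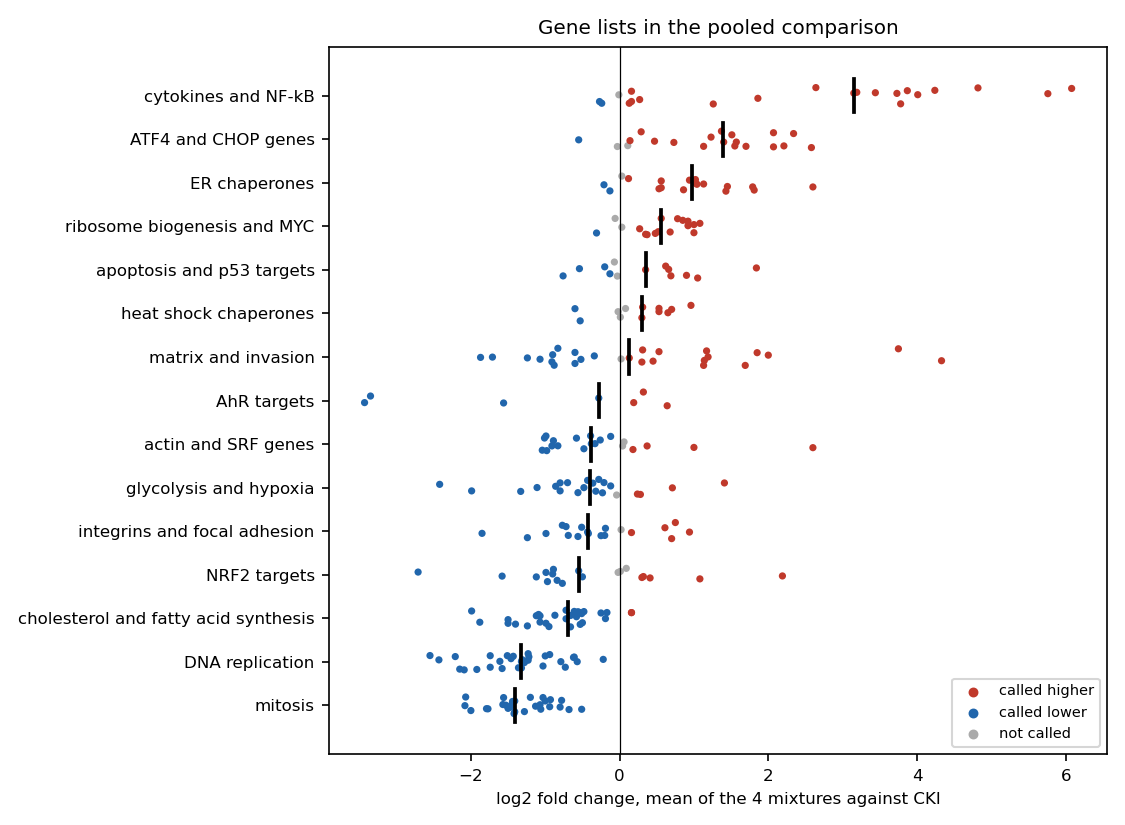
Log2 fold change of the 4-mixture mean against CKI for each tested member of 15 gene lists, coloured by call, with a black bar at the list's median. Medians run from 3.15 for cytokine and NF-kB genes to -1.41 for mitosis genes, and every replication and mitosis gene lies left of 0. CCL20 and TNF, with 0 or 1 counts in each CKI library, are drawn at their fitted values.

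Genes that host small nucleolar RNAs stood out when the ranked genes were read, and were chosen after their values were seen, so no test of the group is given. GAS5 had 38.9, 39.9 and 39.1 CPM with CKI, 105, 89.3 and 139 in untreated cells and 285 to 379 CPM (median 324) in the mixtures. ZFAS1 had 33.0, 36.7 and 32.7 CPM with CKI, 142, 115 and 170 in untreated cells and 309 to 457 CPM (median 351) in the mixtures. These spliced host transcripts carry little coding sequence and are known to be degraded during translation. In both, CKI lay below untreated cells and every mixture library above them. Of all 22 tested genes with an SNHG symbol, GAS5 and ZFAS1 included, 20 were called higher and 0 lower, with a median log2 fold change of 1.13. Of the 20, 15 were higher in all 4 mixtures. Over all genes, 38.7% were higher in the pool and 23.5% in all 4 mixtures.

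The 24 genes with the largest shared differences, 12 in each direction, were chosen on the pooled fold change, from genes called in all 4 mixtures whose mean level reached 10 CPM, and their values are a description. The higher genes were CXCL8, IL24, KRT34, CXCL2, PTGS2, CXCL3, LCN2, CXCL1, SCG5, IL6, CLDN1 and LINC02392, with values from 5.76 down to 3.58. KRT34 encodes a hair keratin, LCN2 the iron-siderophore binding protein lipocalin-2 and CLDN1 a tight junction protein. The lower genes were RARRES2, CYP1A1, DMBT1, PLXNA1, BMP4, ASB2, VSTM2L, ADAMTS15, ELFN2, LRP5, LAMA5 and TM7SF2, with values from -3.40 to -2.57. TM7SF2, a sterol reductase gene, and ASB2, a ubiquitin ligase subunit gene, had 11.2 to 20.6 CPM and 3.25 to 6.25 CPM in the mixtures. Untreated cells had 18, 17.8 and 16.2 CPM of TM7SF2, within the range of the mixtures, and 2.63, 2.85 and 2.42 CPM of ASB2, below every mixture library.

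**Figure D4:**
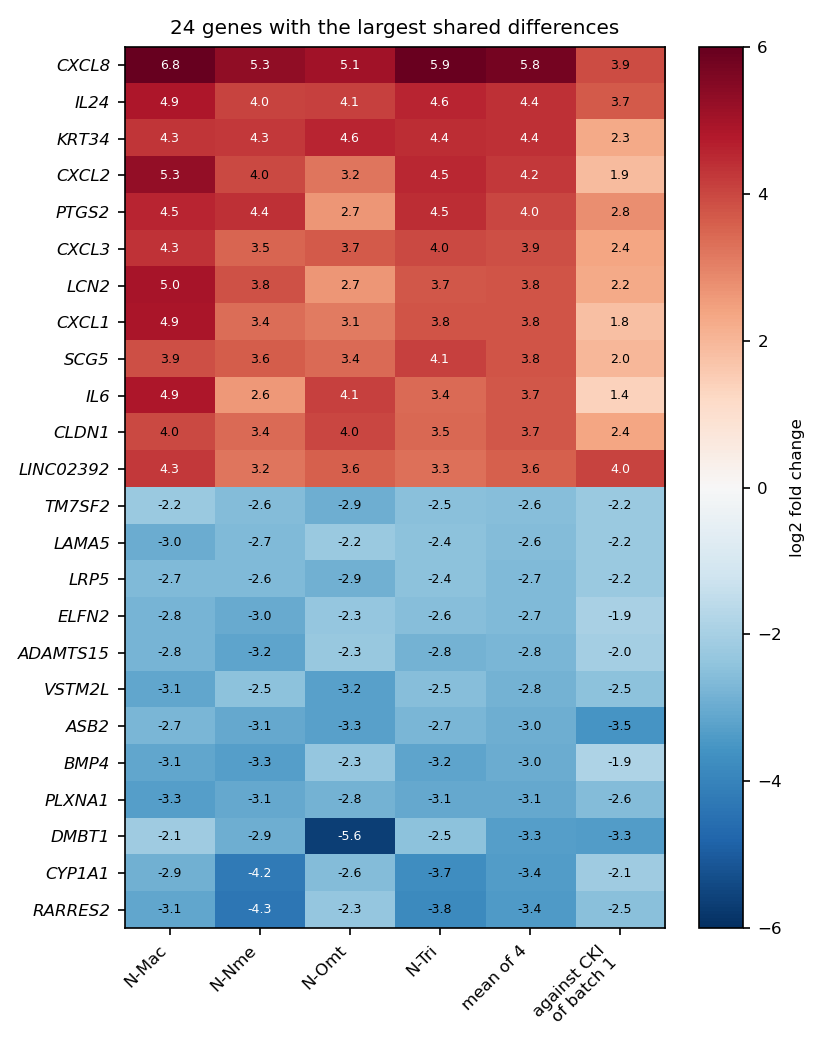
Log2 fold change against CKI of the 24 genes for each mixture, for the mean of the 4 and, in the last column, for the mixtures relative to untreated cells in batch 2 minus CKI relative to untreated cells in batch 1. All columns have one direction for each gene, and the last column is smaller than the mean for 21 of the 24.

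Although shared in direction, most differences were not of equal size. In the test among the 4 mixtures, which uses no CKI library in the difference, 11772 genes were called (78.5%), and 5710 of the 7126 shared genes were among them. The 4 mixtures lay within a range of 0.5 on the log2 scale in 4654 of the shared genes. N-Omt had the largest difference from CKI in 3192 of the 7126, N-Nme in 1431, N-Tri in 1371 and N-Mac in 1132. MMP1, which encodes interstitial collagenase, was not shared, with 121, 129 and 125 CPM with CKI, 346 to 438 CPM with N-Mac, N-Nme and N-Tri and 93.5, 97.1 and 96.7 CPM with N-Omt.

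Because every comparison above rests on the same 3 CKI libraries, the difference was also computed with CKI libraries of another batch. Batch 1 at 48 h has 3 CKI and 3 untreated libraries, in which 9037 of 14448 genes differed (62.5%). The change of the mixtures relative to untreated cells in batch 2 was set against the change of CKI relative to untreated cells in batch 1. Of 15392 genes, 8916 were called (57.9%). Of the 3523 shared higher genes 2906 were called in the same direction and 18 in the opposite one, and of the 3603 shared lower genes 3209 and 6. These values still use the same mixture libraries.

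Several changes had another size on this measure, which differs from the pooled comparison in its CKI libraries and in using untreated libraries of both batches. The part of each in these sizes was not tested. CXCL8 was higher by 3.90 on this measure instead of 5.76, and CKI of batch 1 differed from untreated cells by -0.22. IL6, CXCL1 and CXCL2 were higher by 1.40, 1.82 and 1.92, HSPA5 by 1.68 and DDIT3 by 1.94, all called. All 28 mitosis genes and 23 of 30 replication genes were as low or lower than in the pooled comparison, with list medians of -1.63 and -1.39. The median of the cytokine list was 1.05, beside 1.06 for the ATF4 and CHOP list and 0.50 for ER chaperones. ID1, NQO1 and MYC differed by -0.43, -0.38 and 0.30 instead of -1.99, -1.12 and 1.00. MMP1 changed direction, from 1.13 to -0.92, and in batch 1 CKI was above untreated cells by 4.42 for this gene. The median of the SNHG genes was 0.87.

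The direction of the CKI effect in batch 1 was compared with that of the mixtures, since these libraries share none with the pooled comparison. Of 4541 genes that CKI raised in batch 1, the mixtures were lower than CKI in 2294 (50.5%) and higher in 1365 (30.1%). Of 4369 genes that CKI lowered, they were higher in 1970 (45.1%) and lower in 1621 (37.1%). Over all 14212 genes with both values the mixtures were higher in 38.5% and lower in 40.1%. Calls opposite to the CKI effect were thus more frequent than calls along it in both sets. The Pearson correlation across genes was -0.148, where genes are not independent replicates.

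Shared calls differed with the base composition of the transcripts, a feature the comparison did not use. Transcripts of the shared higher genes had a median GC content of 43.7% and those of the shared lower genes 55.3%, beside 48.5% for all genes tested, where GC is that of the longest annotated transcript of 96.7% of the genes. Genes were put in 5 groups of equal size by GC content. In the group with the lowest GC content, 36.8% were higher in all 4 mixtures and 11.0% lower. In the group with the highest, the shares were 6.69% and 45.6%. The median log2 fold change of these groups was 0.24 and -0.39. On the measure with CKI of batch 1, which also uses untreated cells of both batches, it was 0.20 and -0.36. That of CKI against untreated cells in batch 2 was -0.06 and 0.06. All 4 mixtures against CKI had a higher median in the lowest group than in the highest. The part of base composition in the results above was not tested.

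**Figure D5:**
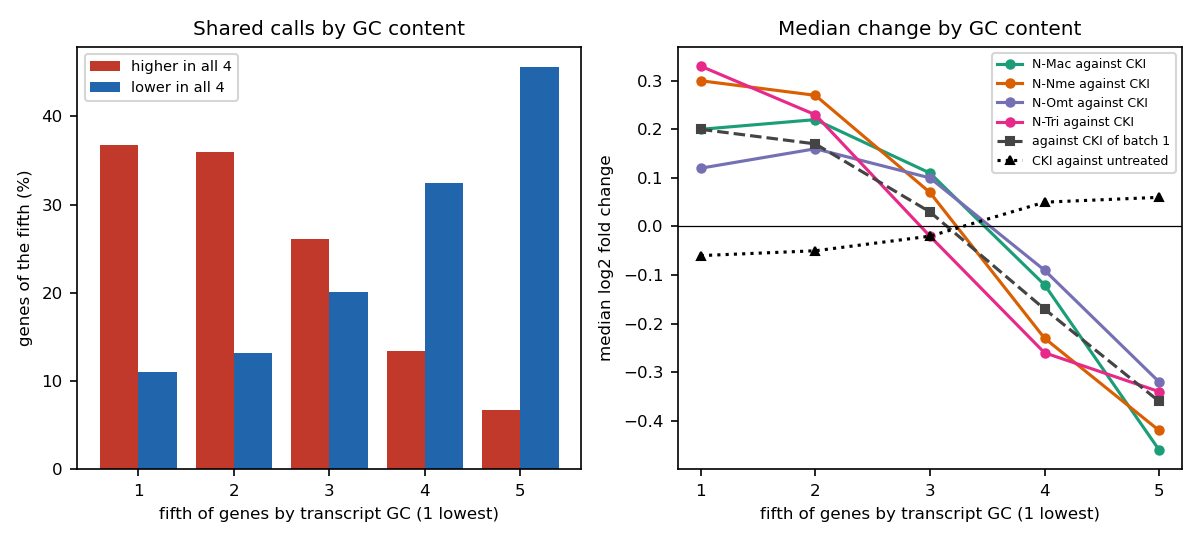
Left, the share of genes called higher or lower in all 4 mixtures in 5 groups of equal size of genes ordered by the GC content of their transcript. Right, the median log2 fold change of each mixture against CKI, of the mixtures against CKI of batch 1, and of CKI against untreated cells. The comparison with CKI of batch 1 takes each side relative to untreated cells of its batch. CKI against untreated cells stays between -0.06 and 0.06 while the others fall from above 0.1 to below -0.3.

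Transcript length differed less, with medians of 3824 bases for the shared higher genes, 3439 for the shared lower genes and 3503 for all. Of genes with an annotated type, 4.97% of the shared higher and 2.86% of the shared lower genes were long non-coding RNAs, beside 6.78% of all. Among the 559 genes at least 2-fold higher in each mixture this share was 15.9%, and among the 647 lower ones 5.98%.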

How the data were processed

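The samples were the 12 libraries of the 4 single-compound removals, 3 CKI libraries and 3 untreated libraries of batch 2 at 48 h, and 6 libraries of batch 1 for 1 comparison. The deposited values were raw counts per gene. Per the labels, the authors made strand-specific, oligo(dT)-selected libraries and sequenced paired ends of 150 bases. The submitters' processing notes name FastQC 0.11.4, Trim Galore 0.3.7, STAR 2.5.3a, featureCounts of Subread 1.5.2, edgeR 3.22.3 and the genome build hg19. The counting options and annotation are not given in the sources used here.

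Counts of the 15 libraries were filtered with filterByExpr (14991 of 27978 genes kept), scaled with TMM and fitted by group in edgeR 4.0.16 (R 4.3.3, limma 3.58.1). The mean of the 4 mixtures was contrasted with CKI, each mixture was contrasted alone, and an F test compared the 4. All used the quasi-likelihood test, two-sided, with Benjamini-Hochberg adjustment and a threshold of 0.05. A gene was called shared where all 4 mixtures passed in 1 direction. Levels are CPM with TMM factors of the 18 batch 2 libraries, and standard errors are the log2 fold change divided by the square root of F. The script was tested on simulated data. Totals of 17673537 to 24603876 counts per library set the depth. The labels give replicates the same numbers, but 30 correlations between deviations of same-numbered libraries were between -0.0377 and 0.0886, so numbers were not taken as pairs. No pair of replicates agreed within sampling noise.

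Named genes were the 12 highest and 12 lowest shared genes of mean level 10 CPM or more, up to 4 called genes of each list with the largest change (mean 1 CPM or more), the 14 core migration genes and the 5 genes that differed most clearly among mixtures. Other list members are given as values, and some genes are not reported here. The members, lists and tests were chosen with earlier results of these data known. GC content and length came from GENCODE 29 transcripts, and promoters from RefSeq (GRCh38.p14), matched by symbol. Alternatives were other scalings, filters, fits and libraries, DESeq2 1.42.0 and a replicate block.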

Additional observations from a re-analysis of the deposited data

Results flagged for a closer look

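Of 151 named genes, 143 differed among the 4 mixtures in edgeR's quasi-likelihood F test, which tests the difference between mixtures directly, as did 78.5% of all 14991 genes. The named genes were chosen in part for large changes, and 5 of them for differing among the mixtures. The 13 genes below had a mean of at least 10 CPM in the mixtures and either a range of at least 2 on the log2 scale over the mixtures or calls in opposite directions with a range of at least 1.

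Genes of division differed most, each with its lowest value in N-Omt. MKI67 had a range of 3.34, from -4.35 in N-Omt to -1.01 in N-Nme, relative to CKI. RRM2 had a range of 3.28, from -4.62 in N-Omt to -1.34 in N-Mac. TOP2A had a range of 3.14, from -4.16 to -1.02, and BIRC5 one of 2.31, from -3.61 to -1.30 in N-Nme.

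Secreted factors differed in size. IL1B, which encodes interleukin-1 beta, had a range of 2.69, from 1.75 in N-Nme to 4.44 in N-Omt. IL6 had a range of 2.24, from 2.61 in N-Nme to 4.86 in N-Mac. LCN2 and CXCL2 had ranges of 2.30 and 2.03, both lowest in N-Omt (2.66 and 3.23) and highest in N-Mac (4.96 and 5.26).

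The other genes were of several kinds. FOS, an immediate early gene, had a range of 2.75, from -3.06 in N-Nme to -0.31 in N-Omt. ANGPTL4, a lipase inhibitor gene, had a range of 2.36, from -2.34 in N-Nme to 0.01 in N-Omt. AKR1C1 had a range of 2.17, from 1.37 to 3.54. MMP1 had a range of 2.16 and was called higher in N-Nme (1.79) and lower in N-Omt (-0.37). IFITM10, an interferon-induced transmembrane family gene, had a range of 2.12 and was called lower in N-Nme (-1.29) and higher in N-Omt (0.83).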

How the results depend on the processing

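Counts of calls stayed within 1.5 times their main value under other scalings, filters, sample sets and DESeq2. The smallest counts came from the fit of all 54 libraries (10021 pooled and 5411 shared genes) and from 2 other settings. These were the measure with CKI of batch 1 and untreated cells of both batches (8916 pooled) and the 12 mixture libraries taken as 1 group (8797 pooled). Without the 5 mixture libraries low in fibroblast markers, chosen after seeing the data, there were 11458 pooled calls (5639 higher, 5819 lower). With at least 2-fold also required, 2424 genes remained in the pooled comparison (1090 higher, 1334 lower) and 1206 were shared (559 higher, 647 lower). Leaving out 1 library at a time gave 10904 to 11790 pooled calls (5307 to 5958 higher, 5597 to 5937 lower), 6673 to 7167 shared calls (3153 to 3586 higher, 3484 to 3650 lower) and 11300 to 11904 among the mixtures. With the replicate number as a block (replicate block), there were 11627 pooled, 7187 shared and 11854 among-mixture calls, and the numbers do not pair the libraries. Of 4680 alternative values of named genes, 4614 kept direction and call, 60 in 19 genes lost the call and 6 in 5 genes reversed. On the measure with CKI of batch 1 and untreated cells of both batches, the reversed genes were MT2A (-0.61), ID3 (1.54), ABCC1 (0.11), COL1A2 (0.26) and MMP1 (-0.92). With both batches and a batch term, MT2A (-0.051) reversed. The cause was not tested.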
